A study of Mus musculus with 6 samples.

Results

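The 31 genes described here mark the epithelium of the choroid plexus, and they were taken by symbol from a table of 24062 gene symbols. All 31 symbols were in the table of each library and had counts in at least 1 of them, and 14 passed the low-count filter used for testing. The study measured RNA of the ventral dentate gyrus, the granule cell field of the hippocampus, in 6 libraries from male C57black 6 mice. A group of 3 libraries came from controls that were not stressed, and the other 3 from mice under chronic restraint stress, a model in which animals are immobilised repeatedly. The labels name no transgene or further treatment in either group, are silent on how many animals went into each library, and give whole dissected tissue, so p-values measure only the spread between libraries. Total RNA was sequenced after removal of ribosomal RNA with a kit that keeps strand, as single-end reads. The libraries are called control 1 to 3 and stress 1 to 3, after the replicate numbers in the labels.

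The choroid plexus is a fold of secretory epithelium over a core of leaky vessels and stroma that hangs into the brain ventricles. Its epithelial cells make cerebrospinal fluid by moving ions, bicarbonate and water, close the barrier between blood and fluid with tight junctions, and secrete carrier proteins such as transthyretin. It lies in the ventricles beside the hippocampus and is not a part of the dentate gyrus.

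Library totals over genes ran from 8305753 to 10107953 counts. Levels are given in CPM, the count as a part per 1000000 of the library's total over genes. Where a gene had no count, the limit that 3 counts set was 0.297 to 0.361 CPM, depending on the library. Libraries differed beyond sampling noise in every pair. The chi-square statistic over genes, per degree of freedom, was 16.3 to 19.5 for the pairs with stress 1 and at most 8.46 for the other pairs. Stress 1 therefore stood apart from the other 5, controls and stress libraries alike, and the comparison of stress with control is given with and without it. The members' levels in stress 1 are a description without a test, since this library was known to be set apart by these genes. Intervals and limits cover counting error only, since the reads carry no molecular identifiers.

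The 31 genes were highest in stress 1 without exception, where the background over all 19083 genes with a count was 22.1% highest in that library. Their summed share of gene counts was 0.0302% in control 1, 0.0322% in control 2, 0.0309% in control 3, 0.803% in stress 1 (95% Wilson interval 0.797% to 0.809%), 0.0309% in stress 2 and 0.0267% in stress 3. The share in stress 1 was 24.9 times the highest of the other 5, and those 5 lay close together with stress 2 inside the control range and stress 3 below it. In dissected tissue, more cells of a type and more RNA per cell cannot be told apart. In stress 1, 26 of the 31 genes stood at least 4-fold above the highest of the other 5, beside 1.05% of all genes with a count. Of the 14 that passed the filter, 9 did so, beside 0.235% of the 14058 tested genes. The filter asks for a minimum level in 3 libraries, stress 1 included, which the other 17 members did not reach. F5 and Lbp, both among the 9, reached it only because stress 1 was counted.

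**Figure D1:**
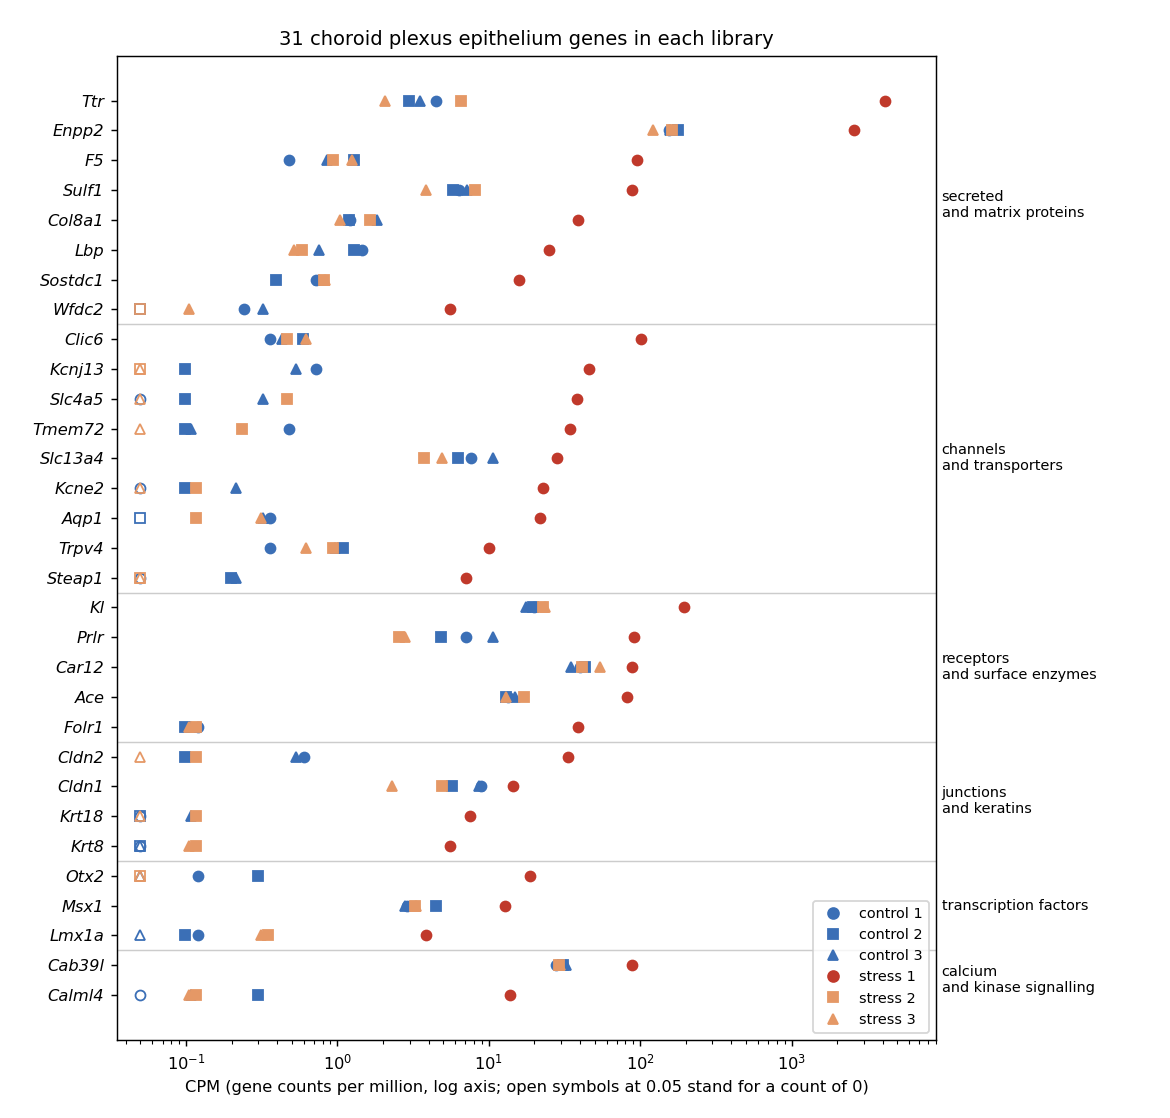
CPM of each of the 31 genes, on a log axis, with 1 point per library: 3 controls, stress 1, and stress 2 and 3. Every gene is highest in stress 1, from 1.63 times the highest of the other 5 libraries for Cldn1 to 639 times for Ttr.

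The 3 markers that define the group are Ttr, Kl and Folr1. Their levels describe the group and are no check of its label. Ttr, which encodes transthyretin, the carrier of thyroid hormone in cerebrospinal fluid, was at 4.45, 2.97 and 3.54 CPM in controls 1 to 3, and at 4171 CPM in stress 1, 6.53 in stress 2 and 2.08 in stress 3. Stress 1 was 639 times the highest of the others (95% counting interval 492 to 846), and stress 2 and 3 lay on either side of the control range. Kl encodes klotho, a co-receptor of fibroblast growth factor 23 that is also shed into the fluid. It was at 19.7, 19.7 and 17.7 CPM in controls 1 to 3, and at 195 CPM in stress 1, 23.0 in stress 2 and 23.6 in stress 3, so all stress libraries were above all controls. Folr1 encodes folate receptor alpha, which carries folate across the epithelium into the fluid. It had 1 count in each of the other 5 libraries, 0.0989 to 0.120 CPM, and 38.6 CPM in stress 1 (361 counts). That is a ratio of 321 with a counting interval of 57.2 to 12698. All 3 markers were present in stress 1, and Folr1 did not exceed the limit of a count of 0 in the other 5. Ttr lies at chr18:20665280-20674321, Kl at chr5:150952607-150993817 and Folr1 at chr7:101858331-101870788 (GRCm38), all as protein-coding genes.

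The secreted and matrix proteins made up most of the difference. Enpp2 encodes autotaxin, the secreted enzyme that makes lysophosphatidic acid, and lies at chr15:54838901-54952892. Its level was 156, 178 and 158 CPM in controls 1 to 3, and 2582, 163 and 122 CPM in stress 1 to 3. Stress 1 was 14.5 times the highest other library (13.9 to 15.3), while the remaining 5 were all above 100 CPM. Enpp2 is also made by oligodendrocytes, whose 10 markers summed to 4726 CPM in stress 1 and to 2048 to 3198 CPM in the others, and their part in its level was not tested. Ttr gave 53.9% of the members' excess in stress 1 over the median of the others, and Enpp2 31.4%. Without both genes the other 29 members still held 0.128% of the counts in stress 1 and 0.0140% to 0.0148% in the other 5.

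F5, coagulation factor V, was at 95.7 CPM in stress 1 and at 0.482 to 1.29 CPM elsewhere, a ratio of 74.4 (43.3 to 140). Sulf1, an extracellular sulfatase that trims heparan sulfate, was at 89.0 CPM in stress 1 and at 3.84 to 8.16 CPM in the others. Col8a1, a chain of type VIII collagen, was at 39.0 CPM against 1.04 to 1.82. These secreted proteins had ratios that spread over a wide range. Lbp, the lipopolysaccharide-binding protein, was at 25.1 CPM in stress 1 and 0.519 to 1.44 CPM elsewhere. Sostdc1, an antagonist of BMP and Wnt signals, was at 15.7 CPM against 0.396 to 0.831, and Wfdc2, a secreted four-disulfide core protein, at 5.56 CPM against 0 to 0.322. Wfdc2 was at or under the limit of a count of 0 in the other 5 libraries.

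Of the 9 channels and transporters 8 were at least 4-fold above the highest other library in stress 1. Clic6, a chloride intracellular channel family protein, was at 0.361, 0.594 and 0.429 CPM in controls 1 to 3, and at 101, 0.466 and 0.623 CPM in stress 1 to 3. Stress 1 was 161 times the highest other (73.8 to 441), and the control and remaining stress values overlapped. Kcnj13, the inward rectifier potassium channel Kir7.1 of the apical membrane, was at 0.722, 0.0989 and 0.536 CPM in controls 1 to 3, and at 46.0, 0 and 0 CPM in stress 1 to 3. Its exons overlap those of Gigyf2 on the opposite strand. How the counting treated strand is not given in the sources used here, and the low counts of Kcnj13 may hold reads of its neighbour. Kcne2, a potassium channel subunit, was at 22.8 CPM in stress 1 against 0 to 0.214 elsewhere, and Slc4a5, a sodium bicarbonate cotransporter, at 38.4 CPM against 0 to 0.466. Aqp1, the water channel of the apical membrane, was at 21.8 CPM against 0 to 0.361. Tmem72, a membrane protein, was at 34.4 CPM against 0 to 0.482. Trpv4, a calcium-permeable channel that senses osmotic change, was at 10.1 CPM against 0.361 to 1.09, and Steap1, of the metalloreductase family, at 7.06 CPM against 0 to 0.214. The exception in the group was the sulfate transporter Slc13a4. It was at 7.59, 6.23 and 10.7 CPM in controls 1 to 3, and at 28.2, 3.73 and 4.88 CPM in stress 1 to 3, a ratio of 2.63 (2.08 to 3.35) for stress 1. Stress 1 was above all controls for this gene and stress 2 and 3 below all of them.

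Among receptors and surface enzymes, several were well detected in the dentate gyrus without stress 1. Prlr, the prolactin receptor, was at 7.10, 4.85 and 10.6 CPM in controls 1 to 3, and at 91.6, 2.57 and 2.80 CPM in stress 1 to 3. Stress 1 was again the highest library, at 8.64 times the highest other (7.01 to 10.7), and stress 2 and 3 were the lowest. Ace, the angiotensin-converting enzyme, was at 13.5, 13.1 and 14.8 CPM in controls 1 to 3, and at 82.2, 17.0 and 13.1 CPM in stress 1 to 3. Car12, a membrane-bound carbonic anhydrase, was at 39.9, 43.4 and 34.7 CPM in controls 1 to 3, and at 89.0, 41.2 and 54.1 CPM in stress 1 to 3. Its ratio of 1.64 (1.47 to 1.84) was among the smallest of the 31 genes, together with that of Cldn1.

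The tight-junction genes split. Cldn2, which forms a pore for cations and water in leaky epithelia, was at 0.602, 0.0989 and 0.536 CPM in controls 1 to 3, and at 33.4, 0.117 and 0 CPM in stress 1 to 3, a ratio of 55.4 (23.5 to 172). Cldn1, a sealing claudin, was at 8.91, 5.74 and 8.57 CPM in controls 1 to 3, and at 14.5, 4.90 and 2.29 CPM in stress 1 to 3, a ratio of 1.63 (1.22 to 2.20). Cldn1 was thus detected in all libraries, and Cldn2 was near the limit of a count of 0 in the other 5. The keratins of simple epithelia, Krt8 and its partner Krt18, lie near each other at chr15:101996698-102004482 and chr15:102028180-102032027. Krt8 had no count in the controls, 5.56 CPM in stress 1 and 1 count in each of stress 2 and 3, with a ratio of 47.7 (8.19 to 1919). Krt18 was at 7.49 CPM in stress 1 and at 0 to 0.117 CPM elsewhere, with a ratio of 64.2 (11.1 to 2571).

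The 3 transcription factors were the lowest group in stress 1, at 35.2 CPM in sum against 2.79 to 4.85 CPM in the other 5. Otx2, the homeodomain factor that choroid plexus development needs, was at 0.120, 0.297 and 0 CPM in controls 1 to 3, and at 18.6, 0 and 0 CPM in stress 1 to 3. Lmx1a, a LIM homeodomain factor of the roof plate from which the plexus arises, was at 3.85 CPM in stress 1 and 0 to 0.350 CPM elsewhere. Msx1, a homeodomain factor of the dorsal midline, was at 12.7 CPM against 2.79 to 4.45, a ratio of 2.86 (2.01 to 4.12). The 2 signalling proteins of the group also differed in size. Calml4, a calmodulin-like protein, was at 13.9 CPM against 0 to 0.297, and Cab39l, a partner of the kinase LKB1, at 89.0 CPM against 27.9 to 32.4, a ratio of 2.75 (2.41 to 3.15).

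Promoters were read because the members were high together in stress 1 and include 3 homeodomain factors. RefSeq windows of 300 bases (250 before to 50 after the start, GRCm38.p6) were found for 24 of the 31 genes, 33 windows in all. The letters TAATCC, the core of OTX-type sites, were in 2 of the 33 windows on either strand (6.06%), beside 7.06% of 32851 windows. TAATTA, a core that many homeodomain factors share and that reads alike on both strands, was in 3 of 33 (9.09%), beside 5.29% of all windows. Ace and Otx2 held the first, and Cldn1 and Otx2 the second. Otx2 has several windows, and the one shown holds TAATTA and not TAATCC. A match describes letters in a window and is not a binding site. The bases before the start are shown for Ace, Otx2 and Cldn1, with the match in capitals, and for Kcne2, whose ratio was the largest among the genes with an exon-free window outside these and which held neither match there. Bases next to the RefSeq start that GENCODE annotates as exon are left out, so Ace is shown with 247 bases and Cldn1 with 248. Distances are counted from the RefSeq start and not from the end of the bases shown. Ace is on the plus strand at chr11:105967698-105967944, with the match starting 27 bases before the start. Otx2 is on the minus strand at chr14:48667645-48667894 (141 bases before), Cldn1 on the minus strand at chr16:26371842-26372089 (239 bases before) and Kcne2 on the plus strand at chr16:92292139-92292388.
Ace: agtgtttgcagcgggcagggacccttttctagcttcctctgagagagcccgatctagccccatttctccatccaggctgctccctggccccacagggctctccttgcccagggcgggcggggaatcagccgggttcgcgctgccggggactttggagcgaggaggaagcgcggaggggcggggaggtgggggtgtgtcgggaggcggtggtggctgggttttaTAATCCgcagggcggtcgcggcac
Otx2: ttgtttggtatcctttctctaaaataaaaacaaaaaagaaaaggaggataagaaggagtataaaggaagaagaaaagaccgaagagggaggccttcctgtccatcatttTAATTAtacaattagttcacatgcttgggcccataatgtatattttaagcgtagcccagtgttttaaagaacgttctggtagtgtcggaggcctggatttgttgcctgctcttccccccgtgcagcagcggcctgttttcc
Cldn1: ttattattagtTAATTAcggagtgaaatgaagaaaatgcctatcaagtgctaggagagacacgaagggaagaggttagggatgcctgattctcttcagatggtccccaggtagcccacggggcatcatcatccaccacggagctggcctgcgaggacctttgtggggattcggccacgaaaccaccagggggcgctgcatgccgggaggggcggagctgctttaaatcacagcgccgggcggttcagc
Kcne2: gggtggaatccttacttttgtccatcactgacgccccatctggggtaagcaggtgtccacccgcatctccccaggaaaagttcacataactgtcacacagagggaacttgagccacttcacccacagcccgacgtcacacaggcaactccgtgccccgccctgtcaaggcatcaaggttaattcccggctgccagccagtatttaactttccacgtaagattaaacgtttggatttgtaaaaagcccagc

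Levels between genes were compared per kilobase of exon (CPM divided by the length of the union of a gene's exons in GENCODE M21). In stress 1 the order was led by Ttr at 3517 CPM per kb, Enpp2 at 447, Kcnj13 at 36.2, Clic6 at 25.7 and Kl at 20.95, and Lmx1a was the lowest at 1.13. In the median of the other 5 libraries the order was another one, with Enpp2 at 27.3 CPM per kb, Car12 at 5.42, Cab39l at 4.31, Ttr at 2.98, Ace at 2.55 and Kl at 2.12. Kcnj13 followed Ttr and Enpp2 in stress 1 and was at 0.0779 CPM per kb in the others. The exon union counts all annotated exons, so genes with long alternative exons come out low on this scale.

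**Figure D2:**
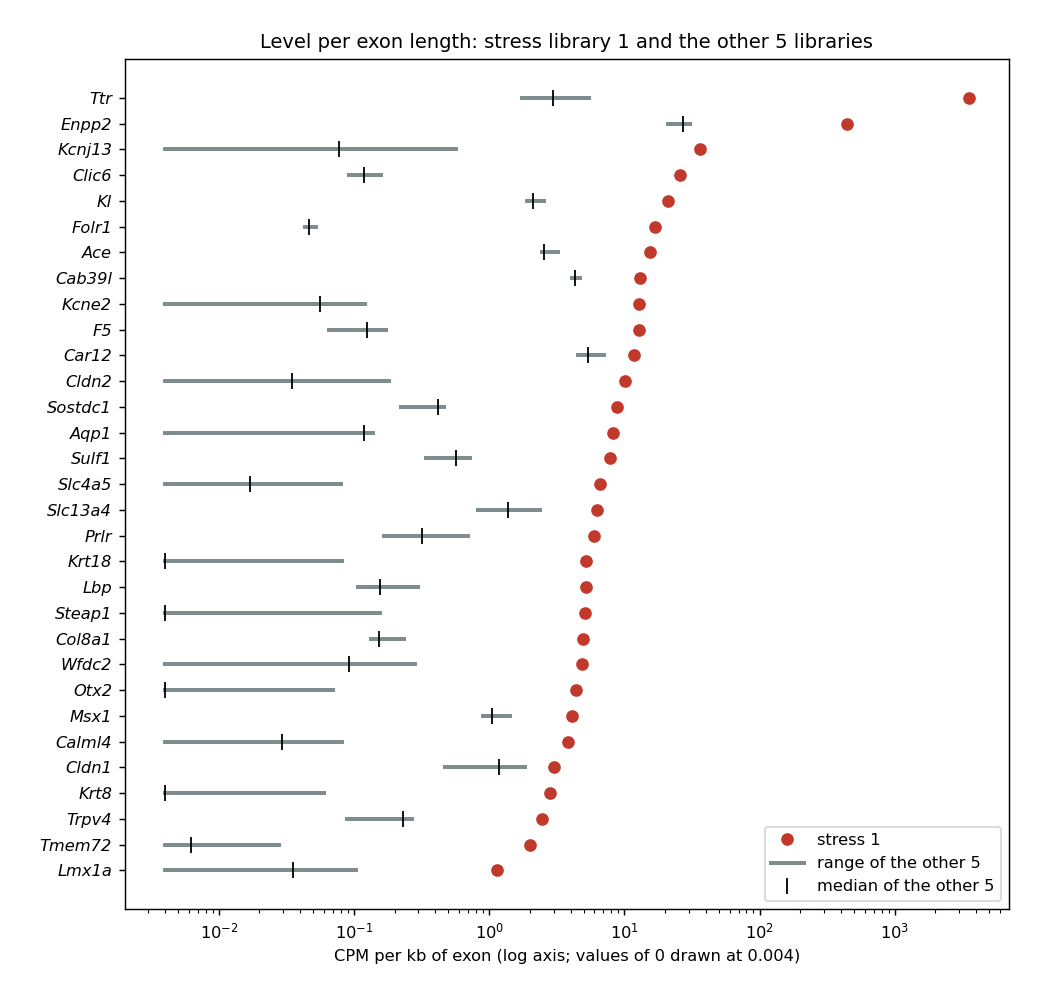
Level of each of the 31 genes in CPM per kilobase of exon, on a log axis, with a point for stress 1, a bar for the range of the other 5 libraries and a tick for their median. Ttr is first in stress 1 at 3517 CPM per kb, while Enpp2 is first in the others at 27.3.

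The members fell into groups by their level outside stress 1. In each of the other 5 libraries 12 of them were above 1 CPM: Ttr, Enpp2, Kl, Prlr, Ace, Car12, Cldn1, Slc13a4, Sulf1, Col8a1, Msx1 and Cab39l. For these the ratio of stress 1 to the highest other library ran from 1.63 to 639, with a median of 6.56. For the 16 genes whose highest other library was below 1 CPM it ran from 11.004 to 321, with a median of 61.5. Among the other 5 libraries no library held most of the maxima: the member was highest in control 1 for 7 genes, control 2 for 6, control 3 for 7, stress 2 for 7 and stress 3 for 4.

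Stress was then compared with control over all 6 libraries by edgeR's quasi-likelihood test. None of the 14 tested members was called at an adjusted p under 0.05, beside 0% of tested genes called higher and 0.0285% called lower. At an unadjusted p under 0.05, 8 of the 14 were higher and none lower, beside 3.86% higher and 4.85% lower over all tested genes. Of the 14, 13 had a positive log2 fold change and the median was 2.13, beside 0.0038 over all tested genes. Stress 1 is in this fit and was known beforehand to be high for these genes. The excess of higher members over the background is therefore no test of stress. For Ttr it was 8.62 (SE 2.65) with an edgeR adjusted p of 0.441, and for Enpp2 2.58 (SE 1.03) with an adjusted p of 0.540. Without stress 1 the median over the 14 genes was -0.07, with 5 positive values (Ttr, Kl, F5, Ace and Car12) and 9 negative ones. DESeq2, which gives no p where 1 library is an extreme count outlier, left 7 of the 14 members without a p, namely Ttr, Enpp2, Kl, Prlr, F5, Col8a1 and Lbp. It did so for 15 of the 14058 tested genes, and called none of the other members.

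**Figure D3:**
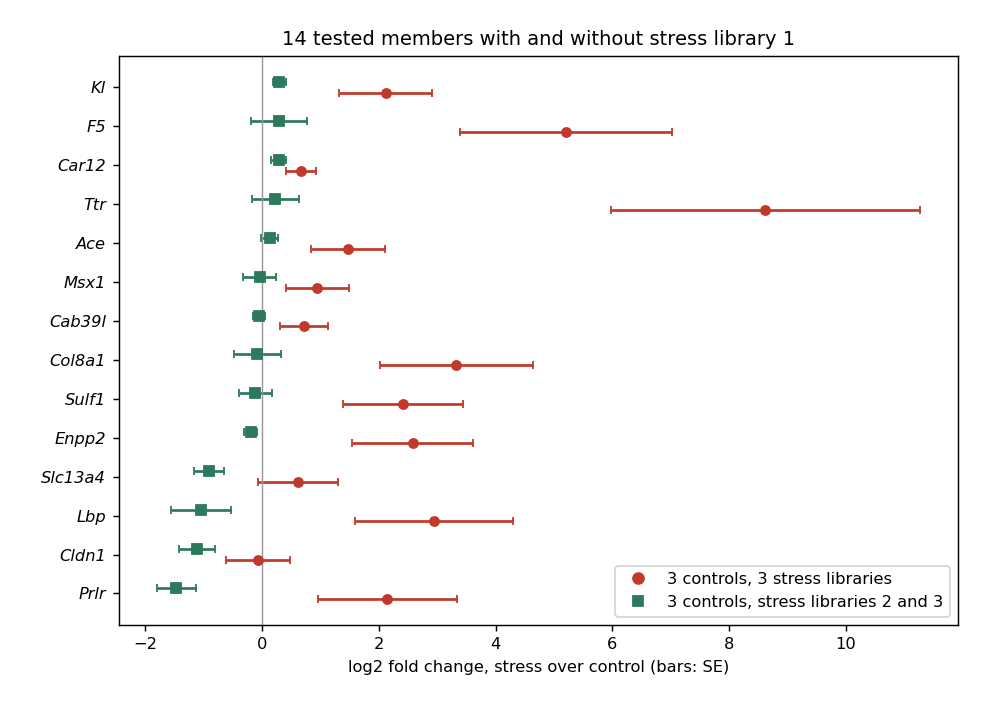
Log2 fold change, stress over control, of the 14 tested members with all 6 libraries and without stress 1; bars are 1 standard error. With all 6 libraries 13 of 14 are positive, with a median of 2.13, and without stress 1 they lie on both sides of 0, with a median of -0.07.

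Without stress 1 (3 controls against stress 2 and 3) the most negative log2 fold changes among the 14 tested members were those of Prlr, Cldn1, Lbp and Slc13a4, and none of the 14 passed the threshold in edgeR's quasi-likelihood test. The background was 0.0775% of 14188 tested genes called higher and 0.211% called lower. At an unadjusted p under 0.05, Kl and Car12 were higher (5.4% of genes) and Prlr, Slc13a4 and Cldn1 lower (6.13% of genes). These are 2 and 3 of 14 genes. DESeq2 called Prlr alone, lower.

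Prlr had a log2 fold change of -1.47 (SE 0.34), with an edgeR p of 0.00109 and an adjusted p of 0.0880. The adjusted p over its alternatives ran from 0.000910 to 0.759, and DESeq2 gave 0.0187. It was below the threshold without control 2 (0.0209), with a log2 fold change of -1.72. Cldn1 had -1.11 (SE 0.31) and Slc13a4 -0.91 (SE 0.26), with edgeR adjusted p of 0.168 and 0.182. The adjusted p over alternatives ran from 0.0198 to 0.999 for Cldn1 and from 0.0156 to 0.771 for Slc13a4. With no low-count filter all 3 genes passed, with edgeR adjusted p of 0.00380 for Prlr, 0.0198 for Cldn1 and 0.0383 for Slc13a4. These genes and Lbp, at -1.05 (SE 0.51, edgeR adjusted p 0.461), were below all controls in both stress libraries, as was Kcnj13, which did not pass the filter. The other members that did not pass it had too few counts in these libraries to be ranked by fold. Over all 14188 tested genes, 15.4% were below all controls in both libraries and 13.7% were above. Of the 31 members, tested or not, 5 were below and 4 above, which is near these shares. Kl, Sostdc1, Lmx1a and Krt8 were above all controls in both, of which only Kl was tested (log2 fold change 0.30, SE 0.11, edgeR adjusted p 0.311). Krt8 had 1 count and Lmx1a 3 counts in each of stress 2 and 3, which does not exceed the detection limit. Sostdc1 had 7 and 8 counts there against 6, 4 and 7 in controls, and Kcnj13 had 1 count in control 2. Prlr lies at chr15:10177238-10349180, Cldn1 at chr16:26356642-26371841 and Slc13a4 at chr6:35267957-35308131.

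**Figure D4:**
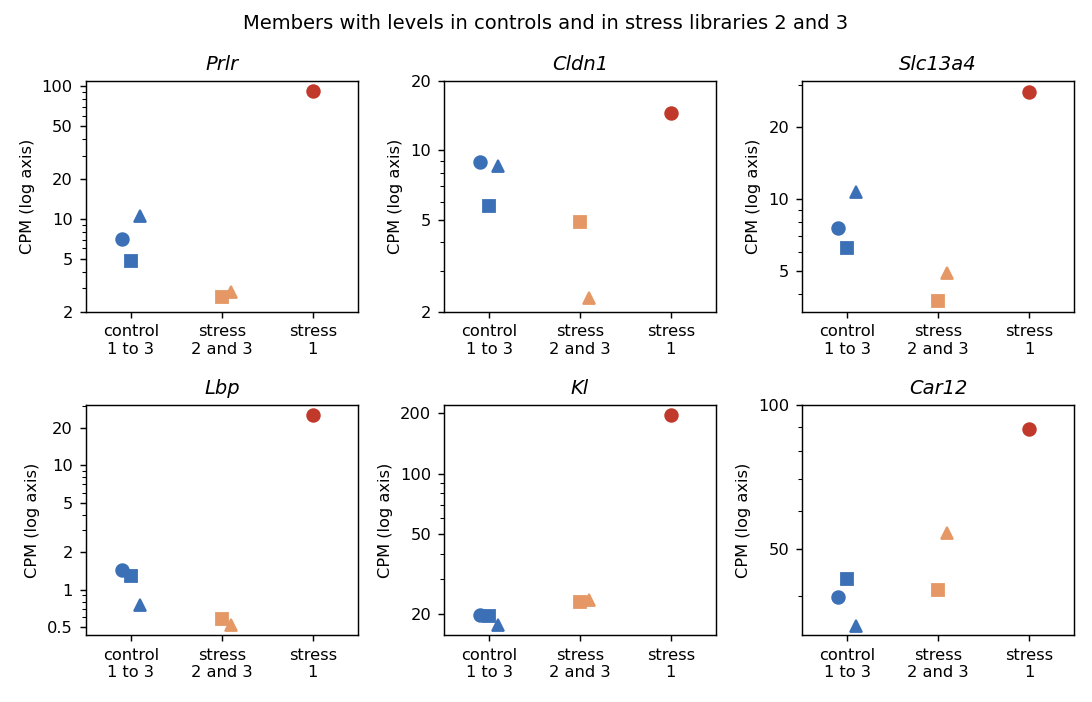
CPM, on log axes, of Prlr, Cldn1, Slc13a4, Lbp, Kl and Car12, with 1 point per library (control 1 to 3, stress 2 and 3, and stress 1 apart). The first 4 lie below all controls in both stress 2 and 3, where Prlr is at 2.57 and 2.80 CPM beside 4.85 to 10.6 in controls and 91.6 in stress 1; Kl lies above all controls in both.

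Cldn1 and Slc13a4 are known in the meninges as well as in the choroid plexus, so stromal markers were set beside them. In the same comparison 13 of 15 choroid plexus and meningeal stroma genes had a negative log2 fold change, with a median of -0.29, and 6 were lower and 1 higher at an unadjusted p under 0.05. None was called by edgeR's quasi-likelihood test. Of the 6 tested macrophage genes all were negative, with a median of -0.75, and 3 were lower at an unadjusted p under 0.05. Over all 14188 tested genes 7301 were negative, with a median of -0.0053. Some other lists leaned the same way. All 10 astrocyte genes were negative (median -0.18, with 5 lower at an unadjusted p under 0.05). So were 9 of 10 oligodendrocyte genes (median -0.08) and 8 of 10 endothelial genes (median -0.04). Neuronal and ependymal lists were mixed, and most lay near the background, in which 6887 of the 14188 tested genes were positive. Positive values were found for 9 of 12 dentate granule genes (median 0.086), 6 of 10 CA3 genes (0.063) and 7 of 12 striatal genes (0.072). The same held for 4 of 7 CA1 and subiculum genes (0.35) and 4 of 7 ependymal genes (0.14). Of the CA1 and subiculum genes 1 was called lower by edgeR at an adjusted p under 0.05, beside 0.211% of all tested genes. Mrc1, a mannose receptor of macrophages at brain borders, was at 9.99, 12.2 and 11.04 CPM in controls and at 5.36 and 7.79 in stress 2 and 3 (log2 fold change -0.74, edgeR adjusted p 0.133, and 0.0161 to 0.465 over its alternatives). The part of any of these cell types in the lower values of Prlr, Cldn1 and Slc13a4 was not tested. Of the remaining tested members without stress 1, the log2 fold change was 0.29 (SE 0.48) for F5, 0.23 (SE 0.40) for Ttr, 0.13 (SE 0.15) for Ace and -0.20 (SE 0.11) for Enpp2. It was -0.12 (SE 0.28) for Sulf1, -0.08 for Col8a1, -0.05 (SE 0.10) for Cab39l and -0.04 for Msx1.

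A further 40 genes known from the choroid plexus were read beside the members, 20 for transport and 20 for other functions of the epithelium. Of the transport genes 13 were highest in stress 1 and 3 were at least 4-fold above the highest other library. Of the other genes 16 were highest and 6 were at least 4-fold above. Over all genes with a count, 22.1% were highest in stress 1 and 1.05% at least 4-fold above. Abca4, a lipid transporter, was at 40.0 CPM in stress 1 against 1.66 to 3.64. Slc4a2, an anion exchanger of the basolateral membrane, was at 87.8 CPM against 19.5 to 25.6, and Car14, a carbonic anhydrase, at 20.4 CPM against 3.22 to 7.91. Igfbp2, an insulin-like growth factor binding protein, was at 67.7 CPM against 8.75 to 15.7. Htr2c, a serotonin receptor found on the epithelium and on neurons, was at 123 CPM against 24.7 to 49.1. Atp1b1, which neurons also express, showed no such gap, at 1272 CPM against 1178 to 1287. None of the 18 tested transport genes and none of the 14 other tested genes was called by edgeR's quasi-likelihood test, with or without stress 1. At an unadjusted p under 0.05 with all libraries, 1 transport gene was lower and no other gene of these lists passed. Without stress 1, 15 of the 18 transport genes were negative (1 higher and 3 lower at an unadjusted p under 0.05), as were 11 of the 14 other genes (2 lower).

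Marker lists of several other cell types were also high in stress 1. Over all genes with a count, 22.1% were highest in stress 1, and the share lowest there was not computed. The 19 ependymal and motile cilia genes in the files, which mark the ciliated lining of the ventricles, were all highest in stress 1 and summed to 171 CPM there against 16.6 to 19.9. Foxj1, the master factor of motile cilia, was at 18.5 CPM against 1.45 to 3.73. Of the 14 striatal and amygdala neuron genes 13 were highest in stress 1, with sums of 1120 CPM against 290 to 308 CPM. Penk, which encodes enkephalin, was at 165 CPM there against 6.86 to 10.8. The CA3 pyramidal neuron genes were all 10 highest in stress 1, at 1734 CPM against 947 to 1199. Dentate granule neuron genes were all 12 lowest in stress 1, at 468 CPM against 772 to 1060 CPM. Prox1, the defining factor of granule neurons, was at 47.5 CPM against 93.1 to 132, so granule cell markers were present in every library and lowest in stress 1. The part of these cell types in the members' levels was not tested.

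The vascular and stromal core of the plexus did not show the members' pattern as a list. Of the 15 stroma genes 4 were highest in stress 1, beside 22.1% of all genes with a count. Another 6 were lowest there, without a background share to set beside them. Their sums were 258 CPM in stress 1 against 206 to 255. These sums depend strongly on a few genes. Pdgfra, the highest gene of the list in each of the other 5 libraries, was at 83.9 CPM in stress 1 against 85.4 to 102. Whether its reads came from stroma or from other cells of the tissue was not tested. Igf2, a growth factor of stroma and meninges, was at 94.95 CPM against 16.9 to 30.3. Dcn, a stromal proteoglycan that is also on the CA1 and subiculum list, was at 9.73 CPM against 19.0 to 68.7. The 4 genes of fenestrated endothelium in the files summed to 44.7 CPM in stress 1 against 31.1 to 35.8. Of these, Igfbp3, an insulin-like growth factor binding protein, was highest in stress 1, at 22.5 CPM against 8.51 to 11.2, and Plvap, which spans the pores of leaky vessels, was at 2.67 CPM against 2.77 to 4.45. Brain endothelium summed to 269 CPM against 281 to 332, and the macrophage genes to 20.4 CPM against 14.6 to 32.3. The hemoglobin genes of red blood cells were at 0 in all libraries. Why they had no count was not tested, and the zeros do not show that blood was absent. Alas2, the remaining gene of that list, was at 5.24 CPM in stress 1 against 2.28 to 8.67. Astrocyte genes summed to 6066 CPM against 7048 to 8002, and CA1 and subiculum genes to 263 CPM against 322 to 476.

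**Figure D5:**
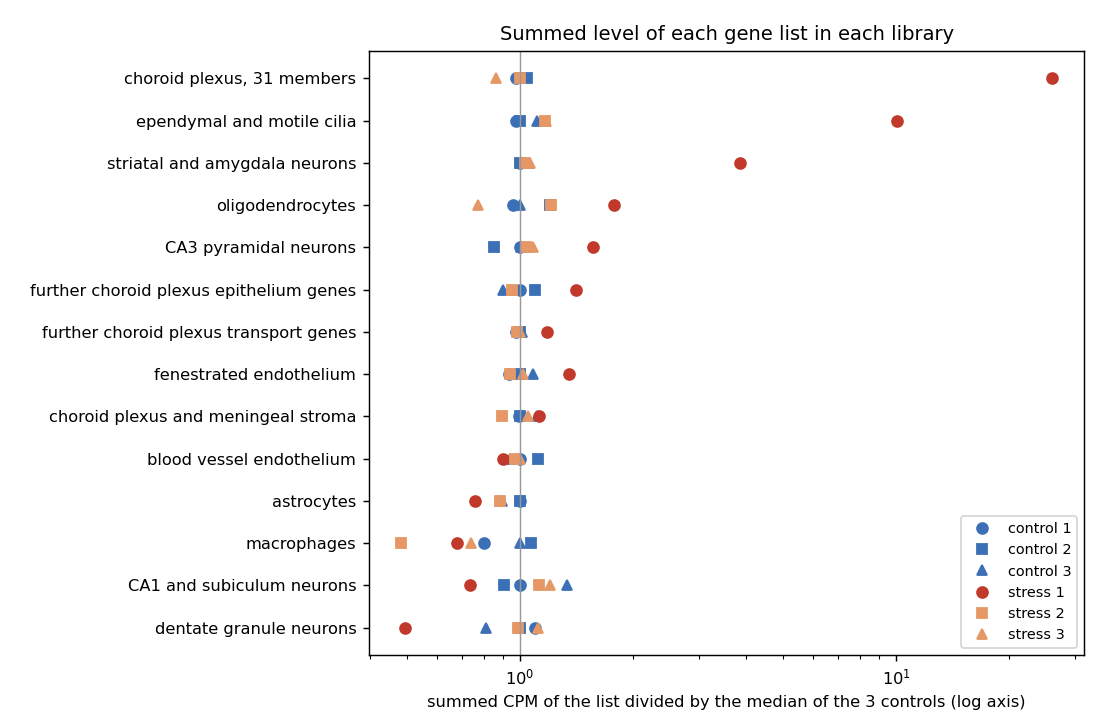
Summed CPM of each marker list by library, divided by the median of the 3 controls, on a log axis. The 31 members, the ependymal genes and the striatal and amygdala genes are highest in stress 1, and the dentate granule genes are lowest there.

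Among tested genes outside the 31, the 12 with the largest ratio of stress 1 to the highest other library held genes of several of these lists: Adora2a, Penk, Ppp1r1b and Drd2 of striatal neurons, Dnah6 of motile cilia, and Abca4 and Rdh5 of the choroid plexus. The others were Col8a2, Slc2a12, Sema3b, Strip2 and Col9a3. Col8a2, the chain that pairs with Col8a1 in type VIII collagen, was at 32.4 CPM against 0.416 to 1.69. Slc2a12, a glucose transporter, was at 39.7 CPM against 3.37 to 4.65, and Col9a3, a chain of type IX collagen, at 55.4 CPM against 8.28 to 10.9.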

How the data were processed

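Per the labels, RNA of ventral dentate gyrus was sequenced in 6 libraries, and the authors deposited 1 file per library, which holds raw counts by gene symbol. HTSeq 0.6.1, TopHat2 2.0.9, Trimmomatic 0.33, FastQC 0.11.3, edgeR 3.12.0 and the build mm10 (GRCm38) are listed, without their roles, per the submitters' processing notes. Not given in the sources used here are the gene annotation, how strand was treated and other options of the counting. Rows of reads assigned to no gene (59.5% to 63.1% of the reads listed per library) or to several (0.211% to 0.253%) were left out. Exons of 7 of the 31 genes are overlapped by a gene on the opposite strand and those of 2 on the same strand, so their counts can be shared with it.

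CPM is the count divided by the library's total gene count. Stress was compared with control in R 4.3.3 by the quasi-likelihood F-test of edgeR 4.0.16 (filterByExpr, TMM scaling, group as the single term, two-sided, Benjamini-Hochberg over all tested genes, threshold 0.05), with and without stress 1. The SE is the size of the log2 fold change divided by the square root of F, an approximation. Intervals of ratios are exact 95% binomial intervals of the 2 counts, rescaled. The scripts were tested on simulated data. Alternatives were DESeq2 1.42.0, limma-voom (limma 3.58.1), other scalings and filters, the replicate number as a block, and each library left out.

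The members and all gene lists were chosen with earlier results of these data known. Besides the members, named genes are the 12 with the largest ratio of stress 1 to the highest other library (at least 5 CPM in stress 1, 0.3 CPM added to both, predicted, clone, small RNA and pseudogene names left out), up to 4 per list with the highest CPM and, for the lists of further choroid plexus genes, 4 with the largest ratio. A gene that this rule takes is not reported here. Positions are those of GENCODE M21 on GRCm38, in which each of the 31 symbols matched 1 gene. Promoter sequences are from RefSeq (GRCm38.p6).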

Additional observations from a re-analysis of the deposited data

How the results depend on the processing

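Over all 6 libraries edgeR called 4 genes, DESeq2 107 (39 higher, 68 lower), limma-voom 1 and the fit with the replicate block 0, and none of these called a member. Whether the replicate numbers pair the libraries is not settled by these counts. The same-number correlations of deviations from the group means were 0.14, -0.0058 and 0.044. Pairs of unlike numbers ran from -0.15 to 0.12, the highest for control 2 with stress 3. The members' median log2 fold change was 2.13, 0.91 by limma-voom, 1.03 with the replicate block and 3.94 with no filter. The last adds genes with few or no control counts (Krt8 had none) and is no bound. Leaving out 1 library gave 0 to 41 genes called and a median of -0.068 to 2.69, the lowest without stress 1. The sign turned without stress 1 for Prlr (-1.47 to 2.69 over these fits), Enpp2 (-0.20 to 3.10), Col8a1 (-0.083 to 3.89) and Lbp (-1.05 to 3.51). It also did so for Slc13a4 (-0.91 to 1.04), Sulf1 (-0.12 to 2.95), Cab39l (-0.053 to 0.99) and Msx1 (-0.042 to 1.27). Cldn1 (-1.11 to 0.37) stayed negative without stress 1 or control 2 and turned when any other library was left out.

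Without stress 1, edgeR called 41 genes and no member. With no filter it called 358 genes and 3 members, with the replicate block 523 genes and 3 members (Prlr, Slc13a4 and Cldn1, all lower, in both), and DESeq2 called 167 genes and 1 member, Prlr. The cause was not tested. Leaving out a further library gave 0 to 88 genes and 0 to 1 members called, and a median of -0.42 to 0.031. A group left with 1 library is assumed to vary like the other. The sign turned for Ttr (-0.79 to 0.85), Sulf1 (-0.74 to 0.34), Col8a1 (-0.43 to 0.22), Msx1 (-0.17 to 0.22) and Ace (-0.067 to 0.31). The count of members at least 4-fold above in stress 1 was 9 of 14 tested and 26 over all genes. Among tested members it was 12 at 2-fold (beside 1.21% of tested genes) and 8 at 8-fold (beside 0.107%). F5 and Lbp, which passed the filter only through stress 1, are in each of these counts.

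Limits: 3 counts per library are the detection limit, so fold changes of the 17 members that were not tested rest on few counts outside stress 1.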
